A study of Mus musculus
Rattus norvegicus and Mus musculus and Rattus norvegicus with 95 samples.

Results

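The genes described are the Hox genes of the HoxA, HoxB, HoxC and HoxD clusters, taken as every symbol of the form Hox, cluster letter, paralogue number. The 13926 mouse-rat homologues measured held 23 such symbols, of 39 Hox genes in the RefSeq mouse gene table, and 22 of the 23 are reported. They comprised 5 Hoxa genes (Hoxa2, Hoxa6, Hoxa7, Hoxa11, Hoxa13), 7 Hoxb genes (Hoxb3, Hoxb4, Hoxb5, Hoxb7, Hoxb8, Hoxb9, Hoxb13), 4 Hoxc genes (Hoxc4, Hoxc5, Hoxc9, Hoxc12) and 6 Hoxd genes (Hoxd1, Hoxd3, Hoxd4, Hoxd10, Hoxd12, Hoxd13). The other members of the clusters were not analysed here. The choice of genes did not use their measured values.

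The study concerns allodiploid embryonic stem cells (AdESCs), hybrid cells with a haploid genome of mouse and a haploid genome of rat in a shared nucleus. Bulk RNA was sequenced from cells in G0/G1, with 1 library for each of the mouse embryonic stem cell (ESC) lines F145 and F146, the rat ESC lines DA25 and DA53, and the AdESC lines MR1-1, MR2-1, RM1-1 and RM2-1. Single-cell RNA was sequenced from 87 cells. Cells that share a type and a line are called a sample here, which gives 11 samples. AdESCs gave 6 cells of MR1-1, 8 of MR2-1, 4 of RM1-1 and 6 of RM2-1, labelled as G0/G1. Embryoid bodies (EBs, aggregates of differentiating stem cells) gave 12 cells of MR2-1 and 5 of RM1-1. Cells from chimaeric animals were 10 fibroblasts from an MR1-1 mouse chimaera, 8 neurons and 4 somatic testis cells from RM1-1 mouse chimaeras, and 4 lung cells and 20 somatic testis cells from RM2-1 rat chimaeras. The labels do not say how cells derived from AdESCs were told from host cells. The labels give no age, no treatment and no stage of the animals, and do not say whether the cells of a sample came from 1 animal. Fibroblast, neuron and lung are each 1 sample of 1 line, so cell type and line cannot be told apart there.

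Hox genes encode homeodomain transcription factors that give cells their position along the head-to-tail axis. Within a cluster, genes of low paralogue number lie towards the 3′ end and are switched on earlier and further forward in the embryo than genes of high number. The forebrain and midbrain lack Hox expression, whereas cells of the trunk keep a regional set of Hox genes into later life, and pluripotent cells hold the clusters mostly silent under Polycomb proteins. Caudal-type (Cdx) factors, retinoic acid, Wnt and fibroblast growth factor signals open the clusters, and TALE homeodomain proteins (Pbx, Meis, Pknox) bind DNA together with Hox proteins.

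The homeobox, the stretch of 180 bases that encodes the homeodomain, is shown for 4 genes on which results below turn, a pair of paralogues (Hoxb9, Hoxc9) and the genes positive in the most lung and testis cells (Hoxc4, Hoxd10), because it is both what Hox genes share and where reads of related genes are most alike. The sequences are the mouse ones of GENCODE on mm10, 5′ to 3′ on the coding strand. The capitals mark codons 42 to 57, which encode the recognition helix that reads the DNA major groove.
Hoxc4: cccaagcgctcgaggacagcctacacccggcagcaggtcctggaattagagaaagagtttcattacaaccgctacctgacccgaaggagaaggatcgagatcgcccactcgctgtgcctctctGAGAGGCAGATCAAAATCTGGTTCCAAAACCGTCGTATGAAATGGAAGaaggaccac
Hoxb9: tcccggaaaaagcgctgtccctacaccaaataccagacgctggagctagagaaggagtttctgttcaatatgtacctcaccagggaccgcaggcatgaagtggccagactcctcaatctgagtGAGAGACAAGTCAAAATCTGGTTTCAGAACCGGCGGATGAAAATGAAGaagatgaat
Hoxc9: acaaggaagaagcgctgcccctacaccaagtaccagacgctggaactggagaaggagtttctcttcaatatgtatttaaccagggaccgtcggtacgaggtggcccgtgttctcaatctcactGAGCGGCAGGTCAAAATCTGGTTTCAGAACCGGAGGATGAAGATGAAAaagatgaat
Hoxd10: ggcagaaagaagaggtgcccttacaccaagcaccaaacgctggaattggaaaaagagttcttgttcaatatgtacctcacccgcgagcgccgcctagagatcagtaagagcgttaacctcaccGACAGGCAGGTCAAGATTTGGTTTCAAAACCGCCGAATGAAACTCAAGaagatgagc
Each homeobox lay within the last coding exon of its gene. It was at chr15:103035663-103035842 for Hoxc4, chr11:96274659-96274838 for Hoxb9, chr15:102983930-102984109 for Hoxc9 and chr2:74694141-74694320 for Hoxd10, all on the plus strand. Over the 231 pairs of the 22 genes the homeoboxes were identical at 46.1% to 92.8% of positions, with a median of 60%. The 11 pairs of the same paralogue number had a median of 77.2%. Hoxb4 and Hoxc4 were identical at 82.2% of positions and Hoxb9 and Hoxc9 at 83.9%, while Hoxa7 was 85% identical to Hoxb7. The longest run of identical bases in any pair was 52 bases. Reads that fall wholly in such a run cannot be assigned by sequence, and how the deposited values treat them is not given in the sources used here.

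Outside the homeobox, 9 of the 22 genes share exon bases with another gene of the mouse annotation, 6 of them with a gene on the opposite strand. Hoxa7 shares 586 exon bases (20.4% of its exons) with the antisense RNA gene Hoxaas3, and Hoxd10 shares 104 bases with Gm28309 on its own strand. Whether the counting used strand is not stated, so reads of these pairs cannot be told apart here. Hoxb4, Hoxb9, Hoxc4 and Hoxc9 share no exon bases with another gene.

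Values are FPKM, which scale fragments to transcript length and library size. The number of genes at 1 FPKM or more ran from 7835 to 8770 in the bulk libraries and from 3444 to 6246 in the cells. Cells were called positive for a gene at 1 FPKM or more. Read depth is unknown, so a gene at 0 is a gene listed at 0. Rpl7a, a ribosomal protein gene, was listed at 0 in both rat libraries, and Hprt, a gene of purine salvage used by all cells, in both rat libraries and in 59 of the 87 cells. No pair of cells held identical values. Each of the 6 measured pluripotency markers was at 1 FPKM or more in all 8 bulk libraries. Markers went against the label, bore it out in part or did not settle it in 4 differentiated samples. In the sample labelled RM1-1 testis, Gap43 and Slc1a3, which mark growing neurons and astroglia, were positive in 4 of 4 cells at means of 235 and 154 FPKM. There 4 of 9 neuron and 3 of 9 glial markers were positive in 50% of the cells or more, against 1 of 9 and 0 of 9 in RM2-1 testis. Of Sertoli markers 5 of 8, and of Leydig markers 5 of 6, were listed at 0 in every RM1-1 testis cell. In RM2-1 testis 4 of 8 and 3 of 6 were also at 0 in every cell. In the sample labelled RM2-1 lung, 6 of 7 lung epithelial markers were listed at 0 in every cell. There 6 of 6 peritubular myoid and smooth muscle and 5 of 10 fibroblast markers were positive in 50% of the cells or more. Cyp11a1, the first enzyme of steroid synthesis, was positive in 2 of the 4 cells, with a mean of 1028 FPKM over the 4. In all, 2 of 6 Leydig markers were positive in 50% of the cells or more. Another 2 of 6, Cyp17a1 and Lhcgr, were listed at 0 in every cell. The RM1-1 neurons had the same tallies as the sample labelled RM1-1 testis for these lists, 4 of 9 neuron and 3 of 9 glial markers. In the MR1-1 fibroblasts 3 of 10 fibroblast markers were positive in 50% of the cells or more. So were 2 of 7 lung epithelial markers, Epcam in 8 and Cdh1 in 7 of the 10 cells, while 4 of 7 were listed at 0. Gata6 and Foxa2, both endoderm factors, were positive in 7 and 5 of these 10 cells. Below, these samples carry the names of their labels.

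Of the 22 Hox genes, 18 reached 1 FPKM in at least 1 of the 87 cells, 7 of them in a single cell, 5 in 2 to 5 cells and 6 in 6 or more. Hoxb8, Hoxc12, Hoxd12 and Hoxd13 reached it in none, and Hoxb8, Hoxc12 and Hoxd12 were listed at 0 in all 87. The genes positive in the most cells were Hoxd10 (14 cells), Hoxa7 (12), Hoxb4 (10), Hoxc4 (10) and Hoxc9 (9), followed by Hoxc5 (6). Hoxc5 had positive cells in 3 samples and the other 5 genes in 4 each. Hoxa6, Hoxa7, Hoxa11, Hoxa13 and Hoxb13 were positive in AdESC cells only, which is 22.7% of the Hox genes, against 3.86% of all homologues. Hoxa2, Hoxb3, Hoxb4, Hoxb5, Hoxb7, Hoxb9, Hoxc4, Hoxd1, Hoxd3, Hoxd4 and Hoxd10 were positive in differentiated cells only, 50% of the Hox genes against 14.2% of all homologues. Hoxc5 and Hoxc9 were positive in both. These shares are descriptions, since genes with few positive cells fall into such classes more easily and there were 63 differentiated against 24 AdESC cells.

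**Figure D1:**
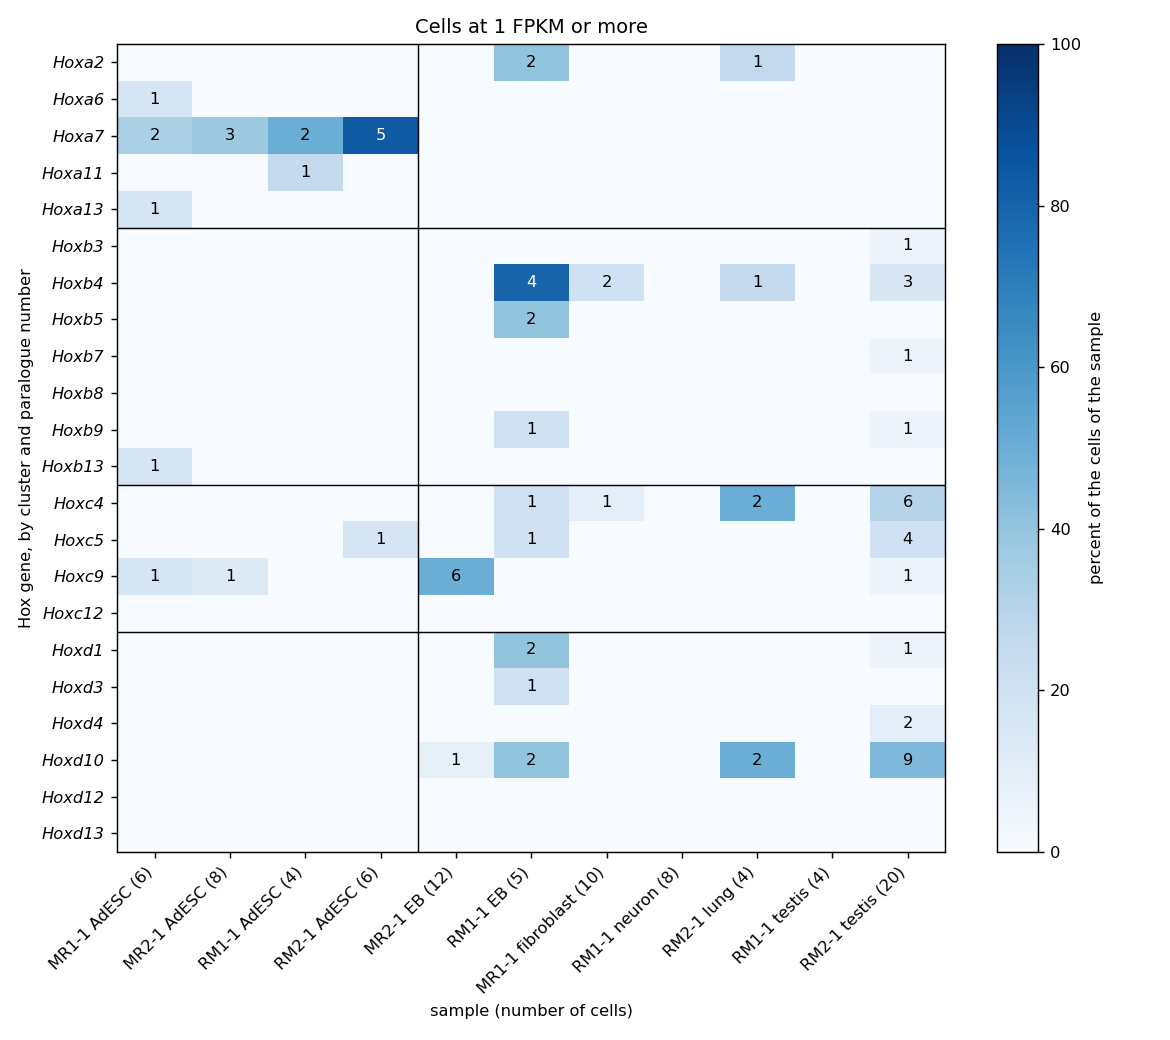
Cells at 1 FPKM or more for the 22 Hox genes (vertical axis, by cluster and paralogue number) in the 11 single-cell samples (horizontal axis, with the number of cells). Colour is the percent of the sample's cells and the digit is the number of cells. Hoxa7 fills the 4 AdESC columns left of the vertical line and no column right of it, and the RM1-1 neuron and RM1-1 testis columns are empty.

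In every sample most of the 22 Hox genes were below 1 FPKM in all cells. In the AdESC samples 5 (MR1-1), 2 (MR2-1), 2 (RM1-1) and 2 (RM2-1) of the 22 had a positive cell, against 56.6%, 60.5%, 54.1% and 57.1% of all homologues. In EBs 2 (MR2-1) and 9 (RM1-1) had one, against 63.1% and 56.3%. In the chimaera samples the numbers were 2 (fibroblast), 0 (neuron), 4 (lung), 0 (RM1-1 testis) and 10 (RM2-1 testis), against 60.8%, 60.9%, 53.5%, 54.2% and 66.1% of all homologues. Positive in 50% of a sample's cells or more were Hoxa7 in RM1-1 and RM2-1 AdESC, Hoxc9 in MR2-1 EB, Hoxb4 in RM1-1 EB, and Hoxc4 and Hoxd10 in lung. That was 1 or 2 of 22 genes per sample, against 43.4%, 39.8%, 37.5%, 36.3% and 38.4% of all homologues in these samples. The other 6 samples had 0 such Hox genes, against 39.5% (MR1-1 AdESC), 39.3% (MR2-1 AdESC), 30.8% (fibroblast), 38.3% (neuron), 42.3% (RM1-1 testis) and 38% (RM2-1 testis) of all homologues.

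By cluster, AdESC cells were positive mainly for 1 Hoxa gene, Hoxa7. There were 19 positive gene-cell pairs in the 24 AdESC cells, of which 15 were of Hoxa, 1 of Hoxb, 3 of Hoxc and 0 of Hoxd. Hoxa7 made up 12 of the 15, and the other 4 Hoxa genes 3. The 63 differentiated cells held 61 such pairs, of which 3 were of Hoxa, 16 of Hoxb, 22 of Hoxc and 20 of Hoxd. By paralogue number, group 4 (Hoxb4, Hoxc4, Hoxd4) was positive in 18 differentiated cells and 0 AdESC cells, and group 10 (Hoxd10) in 14 and 0. Group 7 (Hoxa7, Hoxb7) was positive in 12 AdESC cells and 1 testis cell. Group 9 (Hoxb9, Hoxc9) was positive in 2 AdESC, 7 EB and 2 testis cells. Groups 6, 11 and 13 were each positive in 1 AdESC cell and in no differentiated cell, and groups 8 and 12 in no cell.

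At least 1 Hox gene was positive in 48 of the 87 cells, at least 2 in 17 and at least 3 in 7. All 7 cells with at least 3 came from the RM1-1 EB, RM2-1 lung and RM2-1 testis samples. The mean number of positive Hox genes per cell was 1 ± 0.894 (SD over 6 cells) in MR1-1 AdESC, 0.5 ± 0.756 (8 cells) in MR2-1 AdESC, 0.75 ± 0.5 (4 cells) in RM1-1 AdESC and 1 ± 0.632 (6 cells) in RM2-1 AdESC. It was 0.583 ± 0.515 (12 cells) in MR2-1 EB and 3.2 ± 2.59 (5 cells) in RM1-1 EB. It was 0.3 ± 0.483 in the fibroblasts, 1.5 ± 1.29 in the lung cells and 1.45 ± 1.32 in RM2-1 testis. It was 0 in the 8 neurons and in the 4 RM1-1 testis cells. The 4 AdESC samples thus lay close together, and the differentiated samples ran from below to above them. Of the 9 samples with both kinds of cell, the median number of genes at 1 FPKM or more was higher in cells with a Hox gene in 3. In RM1-1 AdESC, RM2-1 AdESC, RM1-1 EB and lung only 1 cell was without a Hox gene, so this tally is a description.

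**Figure D2:**
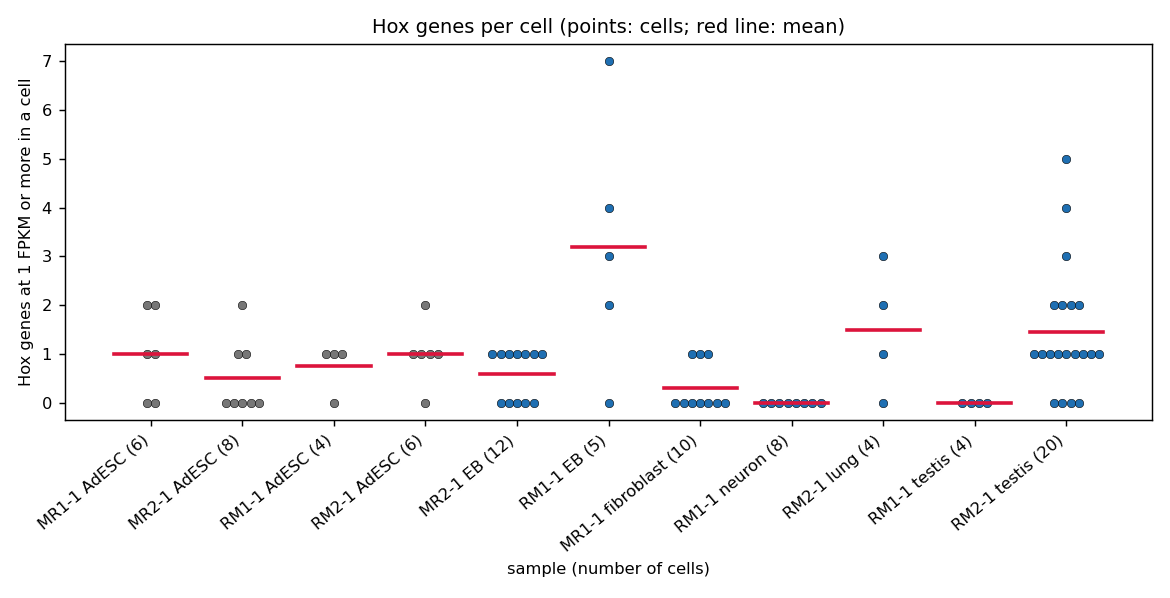
Number of Hox genes at 1 FPKM or more in each cell (points) and the mean of the sample (red line), by sample, with AdESC samples in grey and differentiated samples in blue. The RM1-1 EB cells reach 7 genes, and the neurons and RM1-1 testis cells all lie at 0.

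Hoxa7, a central gene of the HoxA cluster that patterns the trunk, was the Hox gene positive in the most AdESC cells. In MR1-1 AdESC it was positive in 2 of 6 cells, at 9.47 and 2.33 FPKM, and in MR2-1 AdESC in 3 of 8, at 17.3, 10.3 and 1.08 FPKM. In RM1-1 AdESC it was positive in 2 of 4 cells, at 5.03 and 1.73 FPKM, and in RM2-1 AdESC in 5 of 6, at 9.18, 9.12, 7.75, 6.10 and 3.79 FPKM. All 4 lines therefore held positive cells beside cells below 1 FPKM, and RM2-1 held the largest share. In the 63 differentiated cells Hoxa7 was listed at 0 without exception.

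The sample means of Hoxa7 were 2.01 (MR1-1), 3.64 (MR2-1), 1.97 (RM1-1) and 5.99 FPKM (RM2-1) in AdESC and 0 in each of the 7 differentiated samples, so the groups did not overlap. Of the 8421 genes tested, 7.72% had all differentiated samples below all AdESC samples. The fitted difference of log2(FPKM + 1) was -2.05 ± 0.42 (SE), with an adjusted p of 0.00399 (limma). Its size is set by the added 1 and its spread comes from the AdESC samples, since the other samples are all at 0. Only genes averaging at least 1 FPKM across the samples were tested, 3 Hox genes in this comparison (Hoxa7, Hoxb4, Hoxd10), and Hoxa7 alone passed, against 15.9% of all genes tested and 8.57% tested and lower. Hoxa7 reached that minimum only through the AdESC samples, where it is high, so the count supports nothing about the Hox genes as a group. Without the MR2-1 or the RM2-1 AdESC sample Hoxa7 fell below that minimum and was not tested, which left 0 Hox genes called. Without the samples labelled RM1-1 testis and RM2-1 lung the adjusted p was 0.0127. Among all 13926 homologues, 46 (0.33%) were positive in at least 12 AdESC cells, the number seen for Hoxa7, and in no differentiated cell.

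Against the AdESC samples, Hoxa7 did not pass in the EB samples alone (adjusted p = 0.0828, limma) or in the testis samples alone (adjusted p = 0.0603, limma), with the same difference of -2.05 ± 0.65 in each and 2 samples per differentiated arm. It passed there with a pseudocount of 0.1 (adjusted p = 0.0356 for EB and 0.0234 for testis, limma). With those samples all at 0, a smaller pseudocount widens the difference by itself. Hoxa7 also reached the minimum for testing there only through the AdESC samples, so these passes support nothing. Of all genes tested 546 (6.64%) passed in the EB comparison and 1012 (12.3%) in the testis comparison. With the cell line as a block 249 and 449 genes passed, and the adjusted p of Hoxa7 was 0.26 for EB and 0.172 for testis (limma). Testis and EB samples, both at 0 for Hoxa7, gave 0 Hox calls of 2 tested against each other (limma; 0 also at an unadjusted p under 0.05), and 10 of 8218 genes (0.122%) passed there, 1 with the cell line as a block.

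The bulk libraries of the same lines did not show Hoxa7 at the level of the cells. Hoxa7 stood at 0.54 (MR1-1), 0.242 (MR2-1), 0.0622 (RM1-1) and 0.117 FPKM (RM2-1) in bulk, below the mean of the single cells in every line. The order of the lines differed too: MR1-1 was highest in bulk and RM2-1 in the cells. The mouse lines F145 and F146 had 0.217 and 0.210 FPKM, and both rat lines were listed at 0. The bulk and single-cell libraries were made and scaled apart, and the part of this in the difference was not tested.

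Cdx2, a caudal-type factor that activates central and posterior Hox genes, was, like Hoxa7, positive in AdESC cells and at 0 elsewhere. It was positive in 21 of the 24 AdESC cells, with sample means of 6.54 (MR1-1), 5.68 (MR2-1), 7.20 (RM1-1) and 6.15 FPKM (RM2-1), and was listed at 0 in all 63 differentiated cells. The difference of log2(FPKM + 1) was -2.88 ± 0.39 (adjusted p = 0.000151, limma). As for Hoxa7, its size is set by the added 1 and its spread comes from the AdESC samples. Cdx2 also reached the minimum for testing only through the AdESC samples, so this call is a description. Of the 12 AdESC cells positive for Hoxa7, 10 were positive for Cdx2 and 2 were not, a share no higher than the 21 of 24 over all AdESC cells. In bulk AdESCs Cdx2 stood at 3.15 (MR1-1), 12.2 (MR2-1), 8.05 (RM1-1) and 3.02 FPKM (RM2-1). The rat lines had 10.7 (DA25) and 82.1 (DA53) FPKM and the mouse lines 0.0812 (F145) and 0 (F146). In these rat lines Hoxa7 was listed at 0, which a missing or short rat gene model would also give. The relation of Cdx2 to Hoxa7 was not tested.

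**Figure D3:**
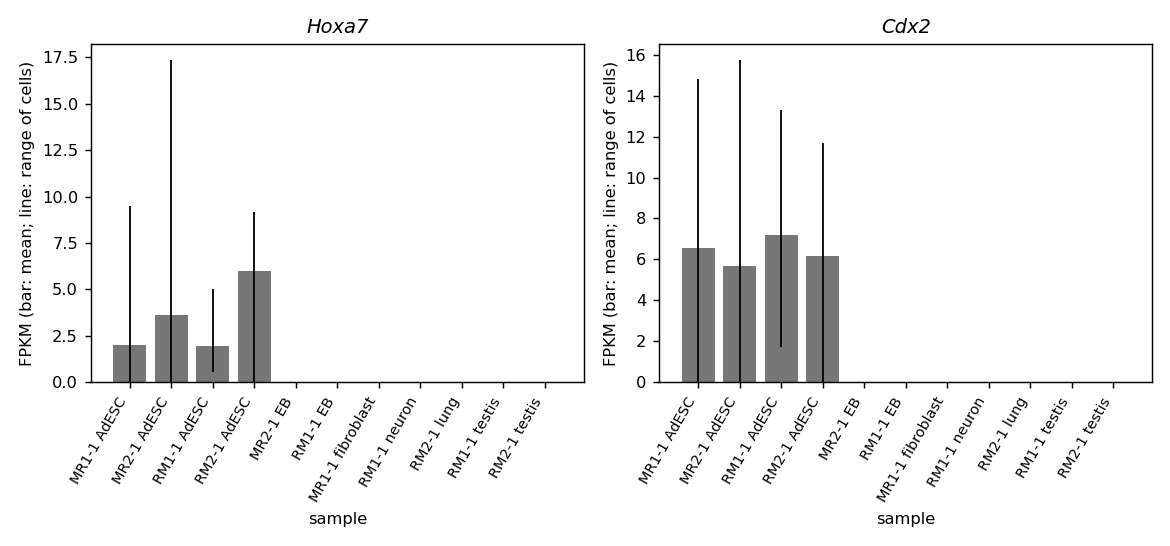
Mean FPKM of Hoxa7 (left) and Cdx2 (right) in each single-cell sample (bars), with the range over cells (lines). Both genes have bars in the 4 AdESC samples, from 1.97 to 5.99 FPKM for Hoxa7 and from 5.68 to 7.20 FPKM for Cdx2, and are at 0 in the 7 differentiated samples.

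The remaining Hox signal of AdESC cells was sparse. Hoxc9, a gene of thoracic identity, was positive in 1 MR1-1 cell (3.07 FPKM) and 1 MR2-1 cell (1.76 FPKM). Hoxb13 and Hoxa13, the last genes of their clusters and active in the tail bud and hindgut, were positive in the same MR1-1 cell, at 14.6 and 7.34 FPKM. Hoxa6 (1.74 FPKM, MR1-1), Hoxa11 (2.07 FPKM, RM1-1) and Hoxc5 (1.13 FPKM, RM2-1) were each positive in 1 cell. No AdESC cell was positive for a paralogue of group 4 or for any Hoxd gene.

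The EB samples differed from each other in which Hox genes they held. The RM1-1 EB cells held 9 Hox genes, mostly of low paralogue number. Hoxb4, which is active from the hindbrain back and in blood progenitors, was positive in 4 of 5 cells at 19.5, 7.47, 5.64 and 1.03 FPKM. Hoxd10, a gene of the lumbar trunk and limb, was positive in 2 of 5 at 23.2 and 22 FPKM. A single cell was positive for 7 genes (Hoxa2, Hoxb4, Hoxb5, Hoxc4, Hoxc5, Hoxd1, Hoxd3), all of paralogue numbers 1 to 5. Another held Hoxb4 and Hoxb5 together with Hoxb9 (29.0 FPKM) and Hoxd10. Of the other two positive cells, 1 held Hoxa2, Hoxb4 and Hoxd1 and 1 held Hoxb4 and Hoxd10.

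In the MR2-1 EB the positive genes were instead Hoxc9, in 6 of 12 cells at 15.8, 3.44, 2.83, 2.28, 1.60 and 1.38 FPKM, and Hoxd10 in 1 further cell at 10.7 FPKM. Hoxc9 was listed at 0 in all 5 RM1-1 EB cells, while Hoxb4 stayed below 1 FPKM in all 12 MR2-1 EB cells (0.690 and 0.579 FPKM at most). With 1 sample of each line this difference has no replicate check. The lineage genes differed too. T (brachyury), a gene of the primitive streak and nascent mesoderm, stood at 69.6, 33.0 and 223 FPKM in 3 of the 4 Hox-positive RM1-1 EB cells, and Meox1, a somite gene, at 78.9 and 63.2 FPKM in 2. The RM1-1 EB cell without a Hox gene had Otx2, a factor of the forebrain and midbrain, at 100 FPKM, and Otx2 was listed at 0 in the other 4 cells. In the MR2-1 EB, Gata6 and Foxa2, both endoderm factors, were positive in 12 and 9 of 12 cells. These companion genes were singled out after their values were seen, and their part in the Hox calls was not tested.

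In the fit of EB against AdESC, 2 Hox genes were tested and 0 passed (limma; both, Hoxa7 and Hoxd10, at an unadjusted p under 0.05), with Hoxd10 at 2.12 ± 0.86 (adjusted p = 0.169, limma). The sample means of Hoxd10 did not overlap, at 0.890 (MR2-1) and 9.05 (RM1-1) FPKM in EBs and 0 in each AdESC sample, which 17.4% of the genes tested also showed in this direction. Without the MR2-1 EB sample, which leaves RM1-1 as the lone EB sample and assumes that it varies like the other groups, Hoxb4 was the 1 Hox gene called (limma). It entered the test there only through RM1-1 EB, the sample where it is high, so this call is a description and supports nothing.

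Among the somatic testis cells of RM2-1, 16 of 20 cells (80%, exact 95% binomial interval 56.3% to 94.3%, which covers counting error only) were positive for at least 1 of 10 Hox genes. Hoxd10 was positive in 9 of them, at 26.7, 20.7, 13.9, 13.5, 9.33, 6.29, 5.39, 2.00 and 1.34 FPKM, and was listed at 0 in the other 11. Hoxc4 was positive in 6 (6.70, 3.78, 2.83, 2.11, 1.18 and 1.10 FPKM), Hoxc5 in 4 (9.79, 4.54, 3.80 and 3.22 FPKM) and Hoxb4 in 3 (10.8, 2.07 and 1.03 FPKM). Hoxd4 was positive in 2 cells, and Hoxb3, Hoxb7, Hoxb9, Hoxc9 and Hoxd1 in 1 each. The cell with the most genes held 5 of paralogue numbers 4 to 9 (Hoxb4, Hoxb7, Hoxb9, Hoxc4, Hoxc5) and no Hoxd10. Hoxc4 and Hoxc5 are neighbours in the HoxC cluster and were positive together in 3 cells of the 87. In the same sample Meis1, which encodes a TALE partner of Hox proteins, stood between 6.89 and 178 FPKM in every one of the 20 cells, with and without a Hox gene.

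The 4 RM1-1 testis cells were positive for no Hox gene, with an exact 95% upper limit of 60.2% of cells for 0 of 4. Only Hoxb3 was above 0 in them, in 1 cell at 0.0560 FPKM. Lhx2, a forebrain factor, was positive in 3 of these 4 cells. The 8 RM1-1 neurons were also positive for no Hox gene, with an upper limit of 36.9%. Hoxb3 alone was above 0 there, at 0.110 and 0.0556 FPKM in 2 cells. The 2 samples of testis label therefore lay far apart in Hox genes per cell, and the fit of testis against AdESC averages them. Of 2 Hox genes tested 0 passed (limma; Hoxa7 alone at an unadjusted p under 0.05), and Hoxd10 differed by 1.29 ± 0.86 (adjusted p = 0.349, limma).

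In the 4 cells labelled lung, 3 were positive. The first held Hoxa2 (19.3 FPKM), Hoxb4 (10.6 FPKM) and Hoxc4. Another held Hoxc4 and Hoxd10, and 1 held Hoxd10 alone, the Hoxd10 values being 72.0 and 9.88 FPKM. The Hoxd10 cells were those with Cyp11a1, at 2242 and 1868 FPKM, but Cyp11a1 was positive in 0 of the 20 RM2-1 testis cells, 9 of which held Hoxd10. The lung cell with Hoxa2 and Hoxb4 had Cyp11a1 at 0 and Tbx5, a factor of the heart, forelimb and lung mesenchyme, at 20.6 FPKM. Tbx5 was also positive in 2 of the 20 RM2-1 testis cells. Of the visceral and gonadal list, Nkx2-1 was positive in 0 of the 4 lung cells, and Nr5a1, Wt1 and Lhx9 in 1 each. Cyp11a1 and Tbx5 were singled out here after their values were seen, and their part in the Hox calls was not tested. The 10 fibroblasts had 3 positive cells with 1 gene each, Hoxb4 in 2 (47.8 and 2.55 FPKM) and Hoxc4 in 1 (16.3 FPKM), both of paralogue group 4. Across samples Hoxb4 had means of 6.73 (RM1-1 EB), 5.08 (fibroblast), 2.64 (lung), 0.693 (RM2-1 testis) and 0.106 FPKM (MR2-1 EB) and was listed at 0 in all 24 AdESC cells.

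Set as 7 differentiated against 4 AdESC samples, Hoxb4 differed by 1.19 ± 0.63 (adjusted p = 0.206, limma) and Hoxd10 by 1.61 ± 0.81 (adjusted p = 0.189, limma). Hoxd10 had sample means of 20.5 (lung), 9.05 (RM1-1 EB), 4.96 (RM2-1 testis) and 0.890 FPKM (MR2-1 EB), and was at 0 in the other 7 samples. Both genes overlapped between the groups, because at least 2 differentiated samples were at 0 as all AdESC samples were. The other Hox genes had means under 1 FPKM over the 11 samples and were not tested.

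**Figure D4:**
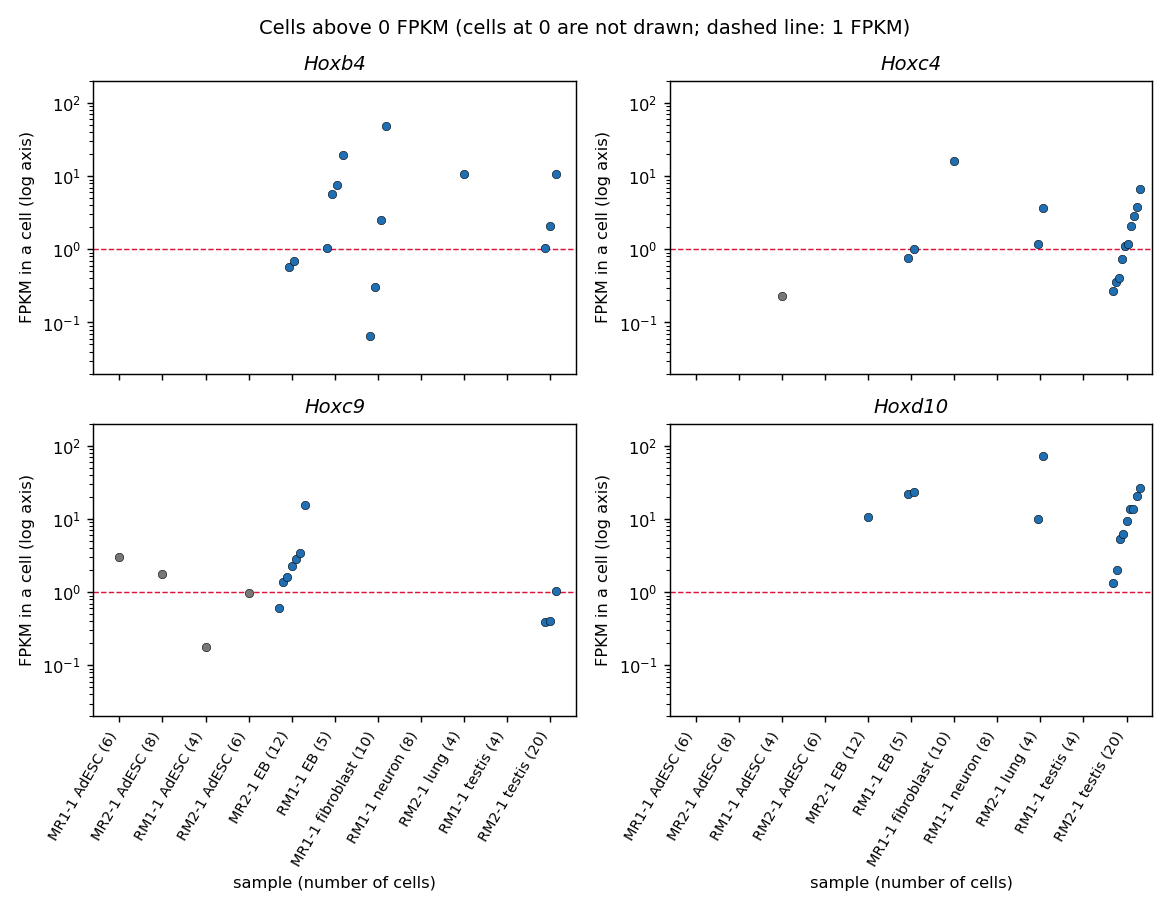
FPKM of Hoxb4, Hoxc4, Hoxc9 and Hoxd10 in single cells on a log axis, by sample, with AdESC cells in grey and differentiated cells in blue; cells at 0 are not drawn and the dashed line is 1 FPKM. Hoxd10 and Hoxb4 have no AdESC point, and Hoxc9 has its largest group of points in the MR2-1 EB.

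In bulk stem cells the Hox genes stood low throughout: 18 of the 22 reached 1 FPKM in no library, none reached 10 FPKM, and Hoxa6 was listed at 0 in all 8. The gene with the highest level was Hoxb9, a gene of thoracic identity, at 4.74 (F145) and 5.21 FPKM (F146) in mouse ESCs. It stood at 0.925 (MR1-1), 0.534 (MR2-1), 1.35 (RM1-1) and 1.12 FPKM (RM2-1) in the AdESC lines and at 0 (DA25) and 0.597 FPKM (DA53) in rat ESCs. Every AdESC and rat library thus lay below both mouse libraries, and AdESC and rat libraries overlapped. In bulk RNA, fewer cells with a transcript and less of it per cell cannot be told apart.

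Hoxb9 was the only Hox gene with a bulk mean of 1 FPKM or more over the 8 libraries and so the only one tested. Its AdESC and rat means were 0.981 and 0.299 FPKM, so it reached that minimum only through the mouse libraries, where it is high. The calls below are therefore descriptions and support nothing about the Hox genes as a group. Against mouse ESCs its difference in AdESCs was -1.61 ± 0.33 on the log2(FPKM + 1) scale (adjusted p = 0.0315, limma), where 3.89% of all genes were called, 1.18% as lower, and 12% had AdESCs below both mouse lines. The call was lost with a pseudocount of 0.1 (adjusted p = 0.135, limma) and when any 1 of the 8 libraries was left out (adjusted p from 0.0513 without MR1-1 to 0.0791 without F146, limma). Between rat and mouse ESCs its difference was -2.24 ± 0.39 (adjusted p = 0.00241, limma), where 26.6% of genes were called, 12.6% as lower. The difference between AdESCs and rat ESCs was 0.63 ± 0.33 (adjusted p = 0.262, limma; 0 Hox genes also at an unadjusted p under 0.05), where 9.7% of genes were called. The sources used here do not give the step that combines the reads of both genomes into 1 AdESC value, and AdESC levels depend on it. Feeder fibroblast markers, summed over 8 genes, came to 3239 FPKM in F145 and 611 FPKM in F146. The sums were 359 and 685 FPKM in the rat lines and 468 to 673 FPKM in the AdESC lines. All 8 were at 1 FPKM or more in the mouse and AdESC libraries, but 2 of 8 in each rat library. Sparc and Fn1, of this list, were also positive in every single AdESC cell, so the sums are not feeder RNA alone. Over 10 fibroblast markers the sums were 2020 (F145), 250 (F146), 2.52 (DA25) and 0.753 FPKM (DA53). In the AdESC lines they ran from 29.8 to 195 FPKM. The part of feeder cells in the Hoxb9 difference was not tested. No single AdESC cell of the 24 had Hoxb9 above 0.

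Hoxb13 stood at 3.28 FPKM in F146 and 0.0744 FPKM in F145, so that its mouse mean rests on F146, and between 0.113 and 0.518 FPKM in the AdESC and rat libraries. Rat ESCs were listed at 0 in both libraries for 10 of the 22 Hox genes (45.5%), against 17.9% of all homologues, and at 0 in both rat libraries but above 0 in a mouse library for 9 of the 22 (40.9%), against 9.14% of all homologues. The mouse mean exceeded the rat mean for 20 of the 22 genes and the rat mean the mouse mean for 1 (Hoxa13, 0.0972 and 0.518 FPKM), against 6906 and 5806 of the 13926 homologues. Without the minimum of 1 FPKM, 4 Hox genes passed as lower in rat ESCs (Hoxb9, Hoxc4, Hoxc5, Hoxc9). Of these, Hoxc4, Hoxc5 and Hoxc9 had mouse means of only 0.524, 0.139 and 0.501 FPKM and rat means of 0.0239, 0 and 0 FPKM. The share of all genes called at that setting is not given here, so this count is a description and supports nothing about the Hox genes. A missing or short rat gene model and missing transcripts both give a 0, and the tables do not tell them apart.

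**Figure D5:**
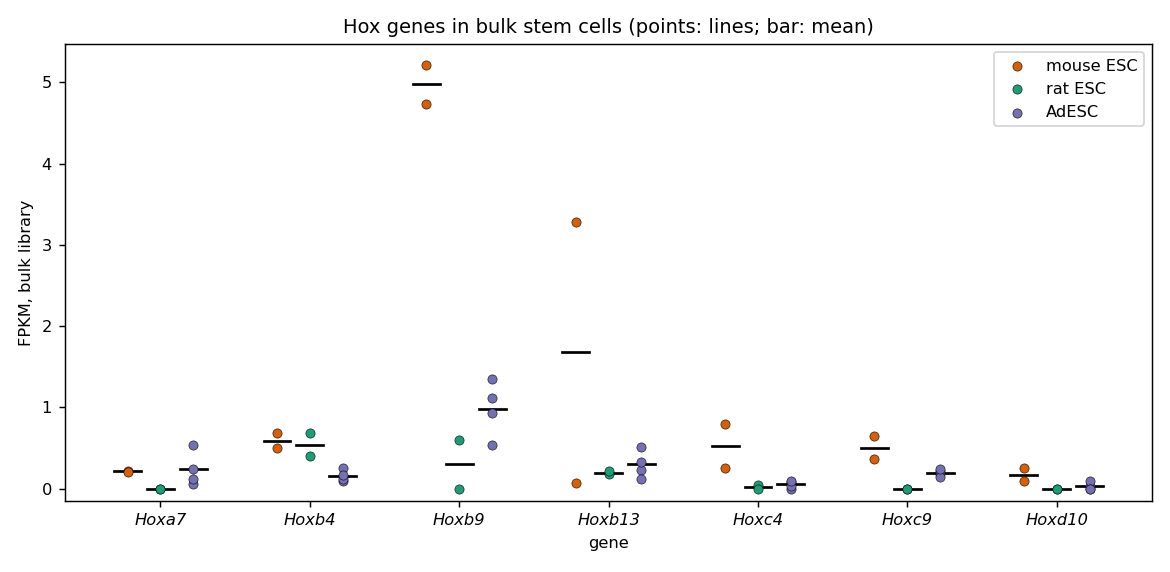
FPKM of 7 Hox genes in the bulk libraries, with 2 mouse lines, 2 rat lines and 4 AdESC lines as points and the group mean as a bar. Hoxb9 in the mouse lines, at 4.74 and 5.21 FPKM, stands above every other value, and most points lie under 1 FPKM.

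Of the genes that work with or upstream of Hox genes, 7 TALE cofactors were tested between AdESC and differentiated cells, and 1 rose and 1 fell, against 15.9% of all genes called in this comparison, with a median difference of 1.61 against 0.02 over all genes. Meis1 rose by 4.43 ± 0.54 (adjusted p = 5.24e-05, limma), from 0.376 ± 0.441 FPKM (SD, 4 samples) to 34.3 ± 25.5 FPKM (7 samples). It reached the minimum for testing only through the differentiated samples. Pknox1, another TALE protein, fell from 26 ± 10.8 to 4.27 ± 2.60 FPKM (adjusted p = 0.00705, limma). Meis1 was above its AdESC level in the RM1-1 neuron and testis samples as well, where no Hox gene was positive: its lowest differentiated mean was 10.3 FPKM.

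Of the 16 tested chromatin proteins that silence or open Hox clusters, 1 rose and 5 fell, against 15.9% of all genes called and 8.57% called lower, with a median of -0.97. Cbx7, the main Polycomb chromobox protein of ESCs, fell from 6.71 ± 2.85 to 0.0254 ± 0.0388 FPKM (adjusted p = 0.000442, limma). It reached the minimum for testing only through the AdESC samples. Wdr5, a core subunit of the MLL methyltransferases, fell from 84.5 ± 21.5 to 16.5 ± 7.99 FPKM (adjusted p = 0.00344, limma). Ash2l, of the same MLL complexes, fell from 104 ± 14.8 to 26.9 ± 22.1 FPKM (adjusted p = 0.00404, limma). Eed and Rnf2, of Polycomb complexes, also fell, and Phc2, another Polycomb subunit, rose by 2.14 ± 0.56 (adjusted p = 0.0182, limma). Of 11 tested genes of the retinoic acid pathway only Crabp1, a retinoic acid binding protein, passed, and it fell from 56.6 ± 5.83 to 8.12 ± 11.3 FPKM (adjusted p = 0.00852, limma). That is 1 of 11, against the same 15.9% of all genes. Within the EB comparison Cyp26a1, which degrades retinoic acid, rose by 4.85 ± 0.72 (adjusted p = 0.00226, limma). Stra6, the receptor that takes up retinol, rose there by 3.92 ± 0.70 (adjusted p = 0.00643, limma). These were 2 of 9 tested in that list, against 6.64% of all genes called there. Both were at 0 in every AdESC and testis sample and reached the minimum for testing only through the EB samples. The count is therefore a description and supports nothing.

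Of the regional transcription factors outside the Hox clusters, Hesx1, an anterior factor also used by pluripotent cells, was listed at 0 in all 7 differentiated samples and fell by 3.29 on the log2(FPKM + 1) scale (adjusted p = 6.04e-05, limma), 1 of 2 tested in the anterior list. Prrx1, a factor of limb and trunk mesenchyme, rose by 2.22 ± 0.54 (adjusted p = 0.0115, limma), 1 of 3 tested in its list. Gbx2, of the mid-hindbrain border and of ESCs, fell by 1.98 on that scale (adjusted p = 0.0270, limma), 1 of 3 tested among the ParaHox and flanking homeobox genes. These lists are short, and 15.9% of all genes were called in the same comparison. Hesx1 and Gbx2 reached the minimum for testing only through the AdESC samples, and Prrx1 only through the differentiated samples. The counts are therefore descriptions. None of 7 tested visceral and gonadal factors passed over all differentiated samples. Gata6 rose by 4.27 ± 0.95 in EBs (adjusted p = 0.0208, limma), 1 of 6 tested there, against 6.64% of all genes. It reached the minimum for testing there only through the EB samples. In bulk, rat ESCs exceeded mouse ESCs in 3 of 4 tested posterior activators, where 26.6% of all genes were called, with Cdx2 at 4.91 ± 0.84 (adjusted p = 0.00227, limma) and Wnt3a at 3.23 ± 0.47 (adjusted p = 0.000921, limma).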

How the data were processed

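Bulk RNA of 8 stem cell lines and single-cell RNA of 87 cells were compared. Per the submitters' processing notes, FastQC 0.10.1, TopHat2 2.0.10 and Cufflinks 2.1.1 were used with the builds mm10 and rn5; per the labels' protocols, RNA was extracted with Trizol and libraries made with a TruSeq kit. The deposited values are FPKM, 1 value per homologue and library, made by the authors. The deposited tables carry no unit, and FPKM was taken from the named tools and the size of the values.

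Cells are not replicates: cell values were averaged per sample before any test. The model was limma 3.58.1 (R 4.3.3), run on log2 of FPKM plus 1 with a prior variance that follows the level. Only genes averaging 1 FPKM or more across the samples fitted were tested (8421 for all differentiated samples, 8218 for EB and testis, 8794 in bulk), and Benjamini-Hochberg adjustment over all of them used 0.05 as the threshold. The script was tested on simulated data. The labels name no replicate cultures or animals. In the EB, testis and bulk fits a p-value reflects how the lines vary, each taken once per cell type. In the fit of all differentiated samples it mixes the spread of cell types with that of lines. RM1-1 enters that arm as EB, neuron and testis, and RM2-1 as lung and testis, so its samples are not independent lines. The lines of that arm are also those of the AdESC arm. Tables used pandas 2.3.3 in Python 3.11.15.

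Hox genes were described in full if positive in 50% or more of a sample's cells, called in a comparison, or with a bulk group mean of 1 FPKM or more. Genes of other lists were given with their test results if called, at most 4 per list. The Hox genes, the lists and the tests were chosen with earlier results of these data known. A few genes of the Hox set and of the lists, and some homeobox sequences, are not reported here. Coordinates and homeobox sequences came from GENCODE M21 on GRCm38 (mm10), in which 22 of the 22 genes matched by symbol; no rat sequence was used. The labels pair single-cell samples by line; between 2 lines, the differences of AdESCs and of EBs correlated at -0.00487 and those of AdESCs and of testis cells at 0.0285 over 8218 genes. Alternatives were another pseudocount, no minimum, upper-quartile scaling, no trend, means of log values, a block for the cell line, other thresholds and leaving out each sample; leaving out 2 samples together was added after seeing the data.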

Additional observations from a re-analysis of the deposited data

Results flagged for a closer look

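Among the 4 AdESC samples, the mean of Hoxb13 over cells was 2.43 FPKM in MR1-1 and 0 in the other 3 samples. The gap between the highest and the next sample was the whole range, above Dixon's 95% critical value for 4 samples. With the other 3 samples at 0 that outcome is fixed, whatever the value in MR1-1. The same holds for Hoxa6, Hoxa11, Hoxa13 and Hoxc5, each above 0 in a single AdESC sample. The rate of about 1 in 20 groups that goes with the critical value assumes normally distributed values and does not apply here. The flag is therefore a description and supports nothing. The mean rests on 1 cell of 6, at 14.6 FPKM, and Hoxa13, its paralogue in the HoxA cluster, was positive in the same cell, at 7.34 FPKM. In the bulk MR1-1 library Hoxb13 stood at 0.234 FPKM.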

How the results depend on the processing

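Under the alternatives tried, Hoxa7 kept its direction and its call in the comparison of differentiated with AdESC samples wherever it was tested. Leaving out 1 sample gave 0 to 1 Hox genes and 791 to 1367 genes called there. For EB against AdESC, leaving out 1 sample gave 0 to 1 Hox genes and 282 to 711 genes, a pseudocount of 0.1 gave 1 Hox gene, no trend 1, no minimum 346 genes and the replicate block for the cell line 249 (of 546). For testis against AdESC these gave 0 to 1 Hox genes and 619 to 1180 genes, with 1 Hox gene under the pseudocount of 0.1, no minimum and no trend, and 449 genes (of 1012) with the replicate block. For testis against EB they gave 3 to 121 genes, 35 with no minimum, 37 with means of log values and 1 with the block (of 10). In bulk, leaving out 1 library gave 0 Hox genes called in the AdESC comparisons and 151 to 344 genes for AdESC against mouse, 223 to 1063 for AdESC against rat and 1059 to 2435 for rat against mouse, where 1 Hox gene was called each time. A pseudocount of 0.1 gave 0 Hox genes for AdESC against mouse, and no minimum gave 4 for rat against mouse. The cause of these changes was not tested, beyond the smaller number of samples or the larger number of genes that each setting brings.

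Hoxd10 in testis against AdESC (1.29) ran from 0 to 2.57 when 1 sample was left out, 0 being the value without RM2-1 testis. Hoxd10 in testis against EB (-0.84) ran from -2.12 to 0.45 when 1 sample was left out, turning without RM1-1 testis. No reversed value passed the threshold. The block changed no other Hox call.

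With a threshold of 0.1 FPKM the mean number of Hox genes per cell was 1.75 in RM1-1 AdESC and 0.125 in the neurons, and Hox genes in 50% of the cells or more numbered 1 in MR1-1 AdESC, MR2-1 AdESC and RM2-1 testis and 3 in RM1-1 EB. With a threshold of 10 FPKM both measures were 0 in RM1-1 and RM2-1 AdESC, and no Hox gene was in 50% of the cells of MR2-1 EB, RM1-1 EB or lung. Depth is unknown, so no floor for a 0 can be given.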
